A study of Caenorhabditis elegans with 8 samples.

Results

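The distal intergenic SKN-1 peaks are the peaks whose summit lay more than 2 kb from the body of every annotated protein-coding gene. They numbered 6528 of 71396 peaks in 4 deposited lists, and merging those that overlapped by at least 1 bp gave 3296 distal regions, set beside 35430 regions from all peaks. Among the called peaks, which had all passed the significance bound of their list, the members were chosen by position only. Fold, width, recurrence and significance beyond that bound were not used to choose them. The label fits protein-coding genes alone, because 993 of the 3296 regions (30.1%) overlapped an annotated gene of another type, piRNA genes not counted.

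SKN-1 is a C. elegans transcription factor related to mammalian Nrf2 that drives detoxification and oxidative stress genes, and it is also needed to specify the mesendoderm of the embryo. Genes of this animal lie close together, and much of its known regulatory sequence sits near gene starts. Long gaps between genes are fewer, and some of them flank developmental and neuronal genes or hold clusters of non-coding RNA genes such as the ribosomal RNA arrays.

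The samples were whole animals grown at 20°C that carried SKN-1 tagged with green fluorescent protein, either as the wild-type form (WT) or as the gain-of-function form with the lax188 allele (GF). Peak lists exist for the antibody samples, of which each genotype has replicates 1 and 2, called WT 1 and WT 2 for the wild type and GF 1 and GF 2 for the mutant. The other 4 of the 8 samples, labelled as without antibody, were not analysed here. All groups share the tag, and the labels give neither the stage nor the promoter that drives the tagged protein, nor whether replicates came from separate cultures. The tests therefore measure a spread that may be technical. The files carry no read counts, so the depth of each library is unknown. The lists held 15943, 29541, 25007 and 905 peaks in the order WT 1, WT 2, GF 1 and GF 2. GF 2 stood apart by its length, so some results that rest on it are also given without it.

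Distal summits made up a similar share of each list. WT 1 had 1585 of them (9.94%, Wilson 95% interval 9.49 to 10.4), WT 2 had 2615 (8.85%, 8.53 to 9.18), GF 1 had 2242 (8.97%, 8.62 to 9.33) and GF 2 had 86 (9.50%, 7.76 to 11.6). These intervals cover counting error over peaks only. The mean share was 9.40% ± 0.770 in WT and 9.23% ± 0.380 in GF (SD, n = 2 each), and the GF and WT values overlapped. The difference of -0.163 percentage points gave p = 1 in a two-sided exact permutation over the 4 lists, a design that cannot give a p below 0.333. It was 0.382 without WT 1, 0.106 without GF 1, -0.708 without WT 2 and -0.431 without GF 2, so its direction rested on single lists.

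Sequence of this kind made up 12.2% of the 6 nuclear chromosomes, so each list held a smaller share of summits there than the sequence itself would give. Per Mb of distal sequence there were 130, 215, 184 and 7.06 peaks in WT 1, WT 2, GF 1 and GF 2, against 163, 306, 258 and 9.30 per Mb elsewhere. Summits were enriched inside protein-coding genes, where 61.9% of the sequence held 71.9%, 74.2%, 74.1% and 68.2% of them. Intergenic sequence within 1 kb of a gene also held fewer than its share in the long lists, with 12.2%, 11.5% and 11.4% on 18.3% of the sequence, and 18.6% in GF 2. Between 2 and 5 kb, 8.71% of the sequence held 7.01%, 6.56%, 6.48% and 5.19% of the summits. The deficit of the long lists was thus shared by all classes outside genes. From 5 to 10 kb the shares were 2.47%, 1.98%, 2.11% and 2.98% on 2.80% of the sequence. Beyond 10 kb, 0.645% of the sequence held 0.464%, 0.318% and 0.372% of the summits of the 3 long lists and 1.33% of those of GF 2 (12 peaks).

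**Figure D1:**
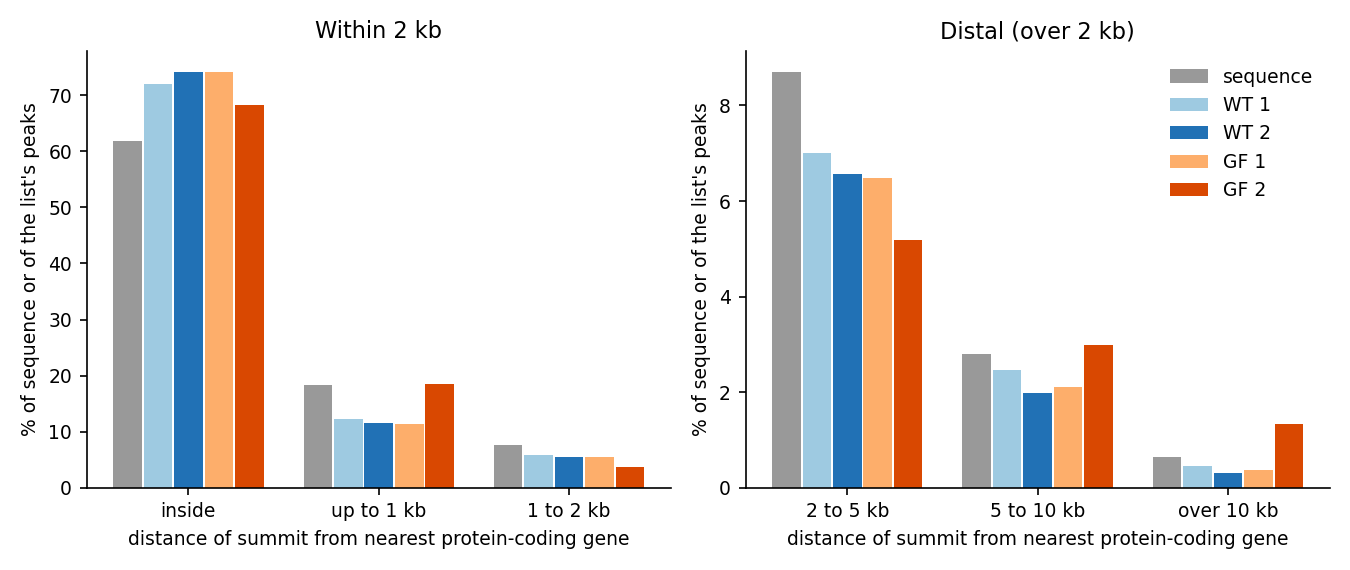
Share of chromosome sequence (grey) and of the summits of each list (colours) by distance from the nearest protein-coding gene, with classes within 2 kb on the left and distal classes on the right, each on its own percent axis from 0. Outside genes the 3 long lists lie below the grey bar in every class, and beyond 10 kb GF 2 reaches 1.33% against 0.645% of sequence.

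Distal summits lay at a median of 3776 bp from a protein-coding gene for WT 1, 3545 bp for WT 2, 3631.5 bp for GF 1 and 4591 bp for GF 2. Of the 3296 regions, 868 had a summit over 5 kb away, 124 over 10 kb and 16 over 20 kb, a region's distance being that of its farthest summit. Distances are approximate, since the gene table belongs to another assembly than the build named for the lists. At the rule's edge, the 3 nearest peaks inside were near srh-134 (2001 bp, fold 1.40), acs-11 (2002 bp, 1.33) and rha-1 (2002 bp, 1.29). The 3 just outside were near igcm-3 (1999 bp, 1.39), tig-3 (2000 bp, 2.01) and tomm-20 (2000 bp, 1.68).

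The fold enrichment of distal peaks, the authors' value per peak, was low and close to that of other peaks. Its median was 1.498 for WT 1, 1.493 for WT 2, 1.56 for GF 1 and 1.47 for GF 2 at distal summits, against 1.46, 1.47, 1.55 and 1.51 at the other peaks of the same lists. The distal median was the higher in the 3 long lists and the lower in GF 2. The mean difference of 0.00734 ± 0.0362 (SD, n = 4 lists) gave p = 0.75 in a two-sided exact sign-flip permutation over the lists, which cannot give less than 0.125 (adjusted p = 0.938 over 5 comparisons). Without GF 2 the mean difference was 0.0245, and without WT 1 it was -0.00354. Peak width had medians of 248, 276, 258.5 and 267 bp at distal summits against 256, 295, 278 and 260 bp elsewhere (mean difference -9.88 bp, exact permutation p = 0.25, adjusted p = 0.417). That difference was -15.5 bp without GF 2.

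The upper tail of the fold held more distal peaks in the 3 long lists and not in GF 2. A fold above 2 was reached by 106 distal peaks of WT 1 (6.69%), 161 of WT 2 (6.16%), 198 of GF 1 (8.83%) and 5 of GF 2 (5.81%). Over all peaks of these lists the share was 2.84%, 3.41%, 6.86% and 6.3%. Against the other peaks the difference was 4.28, 3.02, 2.16 and -0.535 percentage points, a mean of 2.23 (higher in 3 of 4 lists, exact permutation p = 0.25, adjusted p = 0.417) and of 3.15 without GF 2.

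Distal peaks were much more frequent among the peaks of extreme significance. A deposited -log10 q over 100 was reached by 67 distal peaks of WT 1 (4.23%), 80 of WT 2 (3.06%), 60 of GF 1 (2.68%) and 9 of GF 2 (10.5%), where all peaks of these lists reached it in 0.69%, 0.501%, 0.548% and 1.55%. Distal peaks were thus 60.9%, 54.1%, 43.8% and 64.3% of all peaks past that value, against 8.85% to 9.94% of each list. The bound of 100 was set after the values were seen. The median -log10 q of distal peaks was the higher one in 4 of 4 lists, at 5.59 against 4.83 for WT 1, 6.59 against 6.17 for WT 2, 5.86 against 5.67 for GF 1 and 16.6 against 5.23 for GF 2. The mean difference of 3.18 gave an exact permutation p = 0.125, the smallest possible (adjusted p = 0.417), and fell to 0.455 without GF 2.

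Many of these significant distal peaks had a modest fold. Of those past a -log10 q of 100, 24 for WT 1, 29 for WT 2, 20 for GF 1 and all 9 for GF 2 had a fold under 2, and so did 15, 21, 15 and 5 of the 43, 68, 77 and 5 other peaks past it. For a Poisson test such as the one the peak caller uses, the p at a given fold falls as the read count rises. The lists give no read count, and the part of local read depth in this result was not tested.

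**Figure D2:**
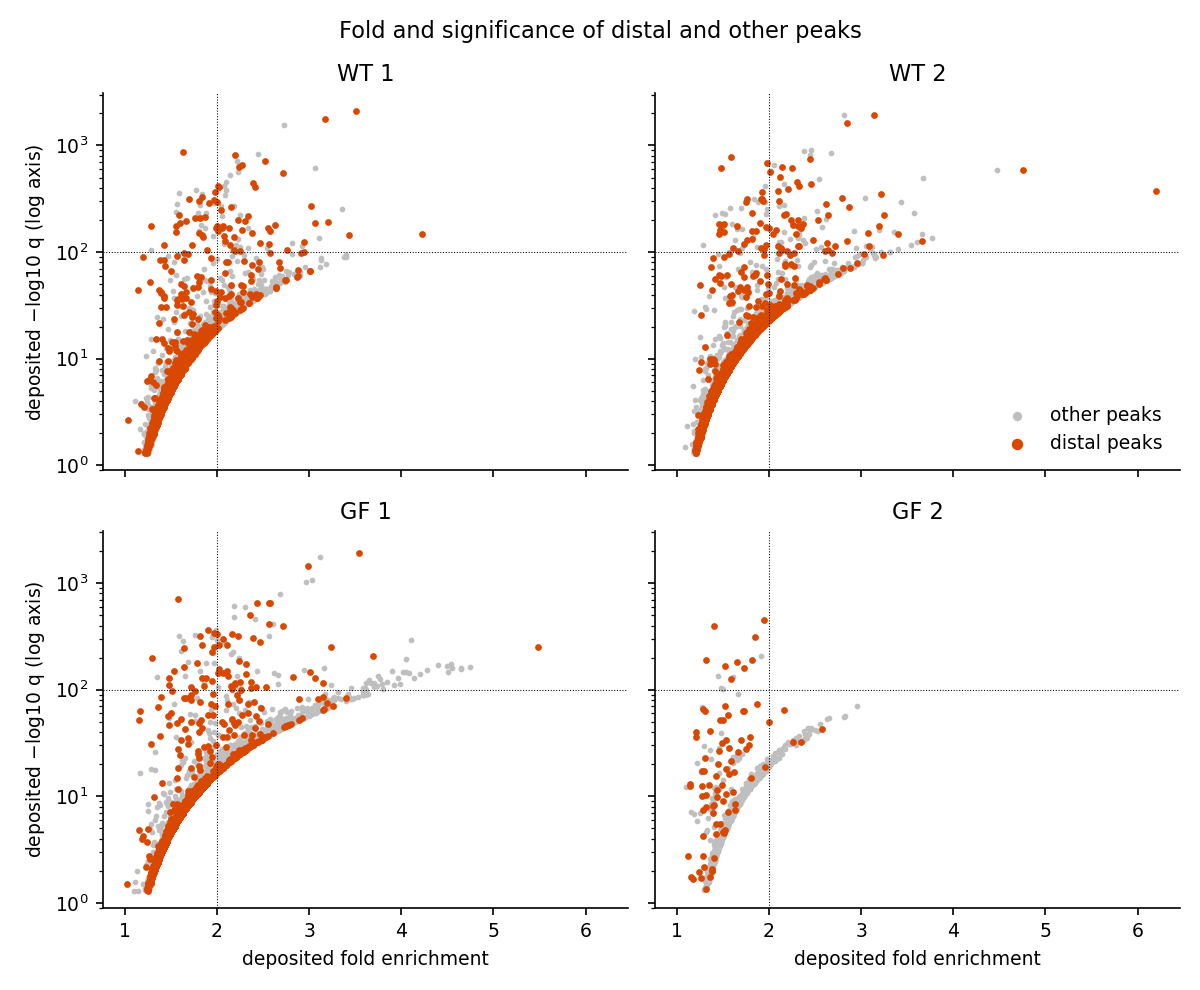
Deposited fold enrichment (horizontal axis) against deposited -log10 q (vertical log axis) for every peak of the 4 lists, with distal peaks in orange and other peaks in grey, and dotted lines at a fold of 2 and a -log10 q of 100. Most peaks follow 1 curve in each list, and distal peaks make up 43.8% to 64.3% of the points above the horizontal line.

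Merged, 89 distal regions passed a -log10 q of 100 in at least 1 list. Of them, 72 (80.9%) were found in WT 1, WT 2 and GF 1, against 30.3% of the remaining distal regions. The bound was passed in all 3 of these lists by 52. The 89 regions were chosen by their significance, and the share found in these lists is not given for non-distal regions past the bound. This contrast therefore describes highly significant peaks and does not set distal ones apart. The 89 regions lay in 47 gaps between protein-coding genes, with 22 regions each on chromosomes V and X and 20 on IV. The 22 regions are 24.7% of the 89, where X holds 25.4% of the distal sequence and V 17.2%. Chromosome IV holds 22.5% of it. Only 5 of the 89 (5.62%) overlapped a non-coding gene, against 30.8% of the remaining regions. The gaps with the most, 6 each, were the one between Y59H11AM.1 and catp-7, a P-type cation ATPase gene, on IV and the one between F40A3.7 and the chemoreceptor gene srsx-7 on V.

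Recurrence of distal against other peaks differed in direction between pairs of lists. Of the 1585 distal peaks of WT 1, 1307 (82.5%, Wilson 95% interval 80.5 to 84.3) overlapped a WT 2 peak, against 85.3% (84.7 to 85.9) of its other peaks. Of the 86 distal peaks of GF 2, 55 (64.0%, 53.4 to 73.3) overlapped a GF 1 peak, against 73.9% (70.8 to 76.8), and these intervals overlap. Between genotypes, 1258 of the WT 1 distal peaks (79.4%) overlapped a GF 1 peak, against 81.0% of the others. Distal peaks recurred more often in WT 1 from the longer lists. Of those of WT 2, 47.6% (45.7 to 49.6) overlapped a WT 1 peak, against 42.6% (42.03 to 43.2) of its other peaks. Of those of GF 1, 54.2% (52.1 to 56.2) did so, against 48.1% (47.5 to 48.8). In GF 2 the gap was wider, and 68 of its 86 distal peaks were found in WT 1 (79.1%, 69.3 to 86.3), against 58.4% (54.96 to 61.7) of its other peaks. For WT 2 the shares were 72.1% and 74.7%. These shares describe single pairs of lists, and peaks of a list are not replicates.

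By lists, 48 of the 3296 distal regions (1.46%) were found in all 4, beside 1.28% of all merged regions. A further 995 (30.2%, against 29.5%) were in the 3 long lists and not GF 2. In at least 2 lists there were 1978 (60.01%, against 60.8%), and in 1 list only 1318 (39.99%, against 39.2%). These shares lie near those of all regions. Both WT lists and no GF list shared 160 (4.85%, against 4.21%), and no distal region was in both GF lists without a WT list (0.0988% of all regions, 35 of them). Absence from a list means only that no peak was called there. Counting any peak over the region, distal or not, put 50 in all 4 lists. In the 1043 regions of the 3 long lists the folds of a region were related, with a Spearman rho of 0.575 between WT 1 and WT 2, 0.598 between WT 1 and GF 1 and 0.693 between WT 2 and GF 1. Over all 10915 regions of these lists the values were 0.480, 0.491 and 0.638. The regions share libraries and unknown local depth, so these values describe the lists.

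The strongest distal region of the series lay on chromosome X, at 16929629 to 16932075. It held the peak with the highest fold of any kind in WT 1 (4.23), WT 2 (6.20) and GF 1 (5.48), and had a fold of 2.34 in GF 2. It overlapped the non-coding RNA gene C30E1.9 and lay between C30E1.4 and F52G3.8, with summits about 2797 bp (WT 1), 2802 bp (WT 2) and 3336 bp (GF 1) from the nearest protein-coding gene, C30E1.4. A second region over C30E1.9 at 16932323 to 16932662 had folds of 2.26, 2.44 and 2.03 in the long lists and no GF 2 peak. All positions count from 1 and are on ce10, the build in the submitters' processing notes.

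Next by summed rank over all 4 lists was a region on IV at 11072102 to 11072357, between the transthyretin-like gene ttr-17 and Y5F2A.4. Its fold reached 3.51 for WT 1, 3.14 for WT 2, 3.55 for GF 1 and 1.94 for GF 2, and its -log10 q was 2124, 1933, 1929 and 448. That -log10 q was the highest of any peak in WT 1, GF 1 and GF 2. A neighbour at 11071673 to 11071892 had folds of 3.17, 2.85 and 2.99 in the long lists only. The other 8 of the first 10 lay in 6 gaps, on X by C36E6.8 and C36E6.2 (2 regions) and by acr-10 (1), on III by lgc-50 (2), on I by Y95D11A.1, on IV by Y59H11AM.1 and on V by ZK218.11. Their folds ran from 2.01 to 3.44 in the long lists and from 1.66 to 2.16 in GF 2.

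Across the 48 regions of all 4 lists the GF 2 fold was the lowest of the 4 in 41. The same count is not given for the 454 regions of all kinds in all 4 lists, so it does not set distal regions apart. The lowest, median and highest fold were 1.28, 1.89 and 4.23 for WT 1, 1.26, 1.93 and 6.20 for WT 2, 1.28, 1.85 and 5.48 for GF 1, and 1.13, 1.52 and 2.57 for GF 2. The ranges overlap, and the authors' fold is relative to each list's own background.

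The order of the genotypes at these regions differed from that at all regions. Both WT folds lay above both GF folds in 19 of the 48 distal regions (39.6%), where 11% of the 454 regions of all kinds in all 4 lists did so. The opposite order, both GF folds above both WT folds, was seen in 2 (4.17%), against 22.7%. The GF 1 fold alone lay above both WT folds in 17 (35.4%, against 71.1%) and below both in 19 (39.6%, against 12.3%). These counts leave out the GF 2 fold, but the regions still needed a GF 2 peak to be in the set. Over the 1043 distal regions of the 3 long lists, which needed no GF 2 peak, the difference from all regions was much smaller. There GF 1 lay above both WT folds in 563 (53.98%, against 59.8%) and below both in 150 (14.4%, against 10.9%). Of the 48 regions, 26 share a gap with another of them, so they are not independent. These counts were made after the values were seen and were not tested.

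Single regions showed the range of this order. At 2328908 to 2329253 on X, over linc-154 and mir-8196.1, the GF folds of 3.40 and 2.57 lay above the WT folds of 1.93 and 1.92. At 17122176 to 17122463 on V, in the gap after ZK218.11, the GF folds were 1.48 and 1.52 and the WT folds 1.40 and 1.38. At 9632178 to 9633132 on II, between ZK1307.8 and ZK1307.7, the WT folds of 2.03 and 3.19 lay above the GF folds of 1.28 and 1.53. The first and second were the 2 regions with GF above WT. All 3 were chosen after their values were seen.

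**Figure D3:**
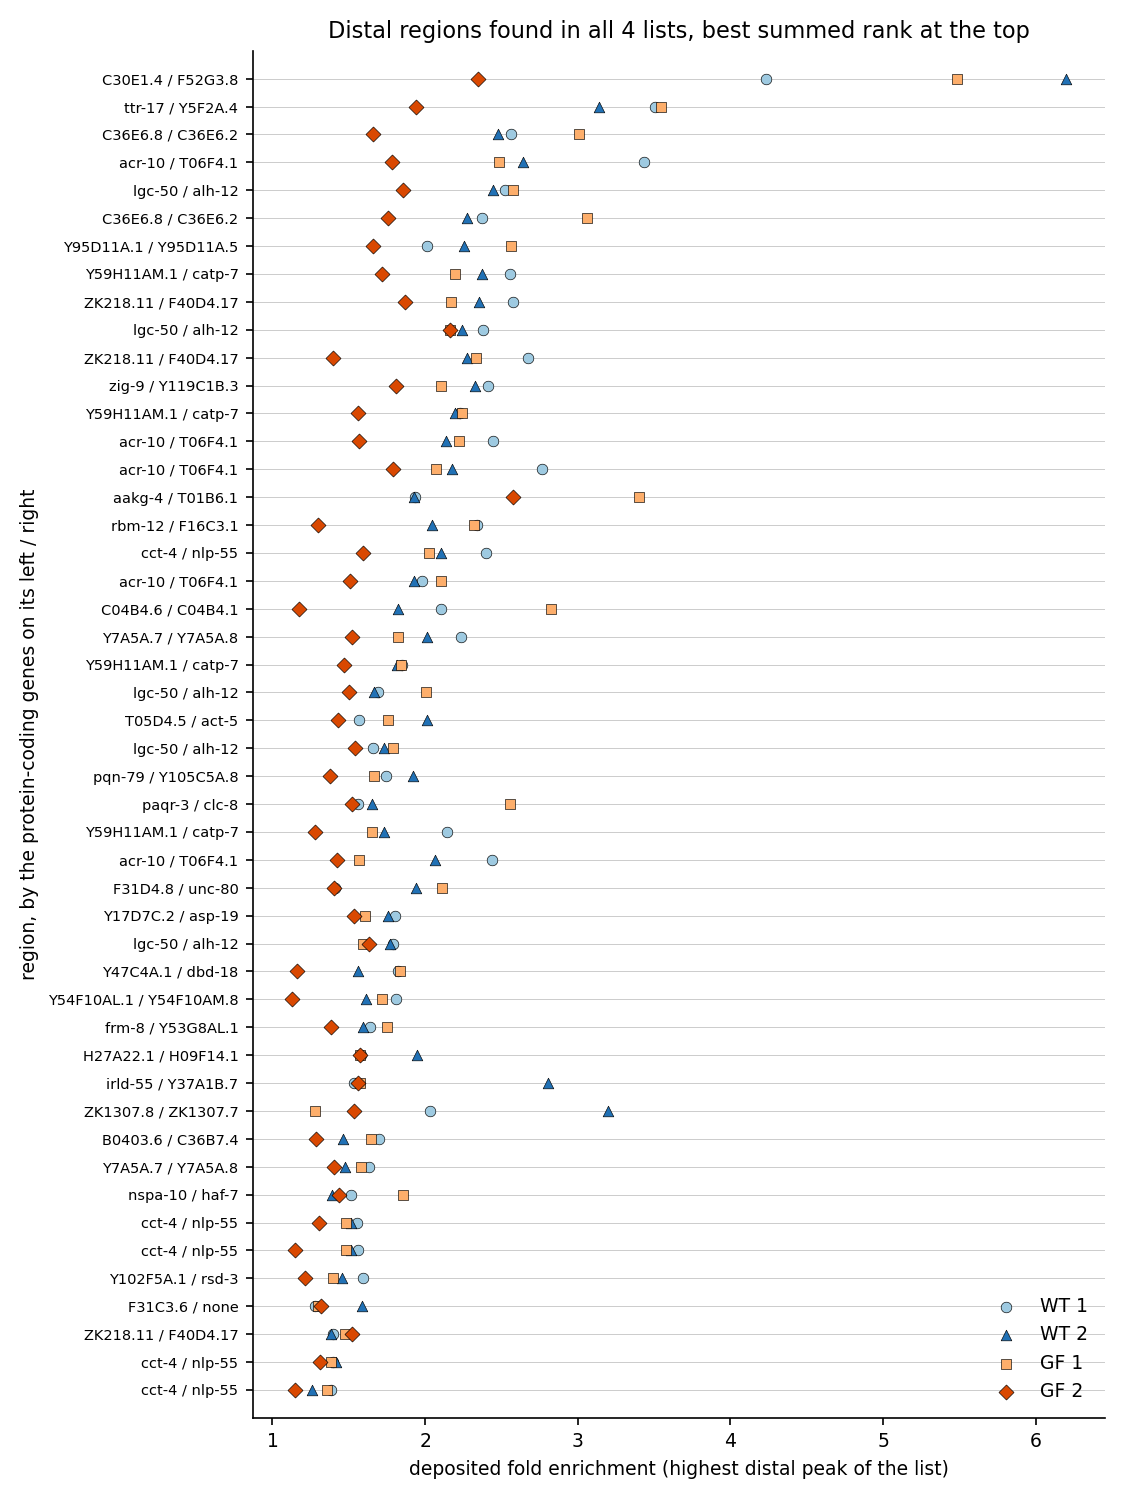
Deposited fold enrichment (horizontal axis) of the 48 distal regions found in all 4 lists, 1 row per region named by the protein-coding genes on its left and right, with 1 point per list. GF 2 is the lowest point in 41 rows, and the top row, by C30E1.4, reaches 6.20 in WT 2.

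By summed rank over the 3 long lists, whether or not GF 2 had a peak, regions were led by the C30E1.9 region and then by 1 on V at 3437624 to 3437992, between the chemoreceptor gene srj-9 and cfz-2, which encodes a Frizzled-type Wnt receptor. Its folds were 3.20 in WT 1, 3.24 in WT 2 and 3.69 in GF 1. Neighbouring regions at 8329444 to 8329739 (3.02, 3.22 and 3.24) and 8329897 to 8330328 (2.69, 3.09 and 3.15) on V lay between clec-219, a C-type lectin gene, and the tropomodulin gene tmd-2. The remaining members of this group lay by F27B3.6 and T04A6.3 on III, C10E2.1 on X, Y49F6B.20 on II and the pair by Y5F2A.4. In these 10 regions each long list had a fold of at least 2.69, and GF 2 had a peak in the C30E1.9 region and in 1 of the pair by Y5F2A.4.

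Regions of both WT lists without a GF peak were led by 1 on X at 143335 to 143569, near Y73B3A.8, with a fold of 3.07 for WT 1 and 4.75 for WT 2. The latter value was the second highest fold of that list. Next came regions near the F-box gene fbxa-214 on V (2.18 and 3.40), near rga-5 on IV (2.25 and 2.87), near Y40A1A.3 on X (1.70 and 3.07) and near Y7A5A.7 on X (2.2004 and 1.98). Of the 160 regions of this kind, 3 had a fold over 2 in both lists, and the medians were 1.45 and 1.46. The Y7A5A.7 region lay beside another in the same gap, at 15808501 to 15808754, that had a peak in all 4 lists. No difference between genotypes was tested at these regions, since each list gives a call and no read count.

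Many of the regions found in all 4 lists shared a gap with another of them. Distal sequence was spread over 2785 gaps between protein-coding genes, and 1412 of these (50.7%) held a distal region. The median was 2 distal regions per gap that held any, so sharing a gap was common among all distal regions. Their number per gap rose with gap length (Spearman rho 0.620). Gaps with regions of the 3 long lists were not counted as a set, so no value without GF 2 is given here. The 48 regions of all 4 lists lay in 29 gaps, and 26 of them in 7. Those 7 gaps were bounded by acr-10, a nicotinic acetylcholine receptor subunit gene, and T06F4.1 (X, 5 regions), by the ligand-gated channel gene lgc-50 and alh-12, of the aldehyde dehydrogenase family (III, 5), by the chaperonin subunit gene cct-4 and the neuropeptide gene nlp-55 (II, 5), by Y59H11AM.1 and catp-7 (IV, 4), by ZK218.11 and F40D4.17 (V, 3), by C36E6.8 and C36E6.2 (X, 2) and by Y7A5A.7 and Y7A5A.8 (X, 2).

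In the acr-10 gap of 31.2 kb, 10 of 16 regions were in the 3 long lists or in all 4. The strongest, at 4037549 to 4038666, had a fold of 3.44 for WT 1, 2.64 for WT 2, 2.48 for GF 1 and 1.78 for GF 2. In the lgc-50 gap of 58.6 kb the strongest, at 7445243 to 7445665, had folds of 2.52, 2.45, 2.58 and 1.85, and a region at 7431979 to 7432345 had 2.38, 2.24, 2.16 and 2.16. The latter values differed little between the 4 lists. In the cct-4 gap of only 9.1 kb, all 6 regions were in the 3 long lists and 5 in all 4, and folds were lower. Its best region, at 8288848 to 8289132, had 2.40, 2.10, 2.03 and 1.59, and the 4 others of all 4 lists stayed between 1.15 and 1.56. The 6 regions ran from 8288848 to 8292691, each less than 500 bp from the next. Merging peaks within 500 bp would join them into 1 region, so they need not be separate sites. Counts of regions of all 4 lists would then be lower.

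Longer gaps held regions more often. A region was found in 21.04% of the gaps of 4 to 6 kb, in 61.8% of those of 6 to 10 kb, in 82.6% of those of 10 to 20 kb and in 90.7% of the 86 gaps over 20 kb. Per Mb of distal sequence the counts were 265, 293, 268 and 238 in that order, so density did not rise with gap length as the share of gaps did. The gap with the most regions, 19, lay between Y73B6A.1 and Y73B6A.3 on IV (70.7 kb), and none of these was in all 4 lists. Next were 17 regions between egl-4, a cGMP-dependent kinase gene, and egl-18, a GATA factor gene (IV, 32.8 kb), and 17 in the ZK218.11 gap (V, 46.2 kb). Then came 16 regions between T06A4.1 and the zinc finger homeobox gene zfh-2 (I, 27 kb).

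**Figure D4:**
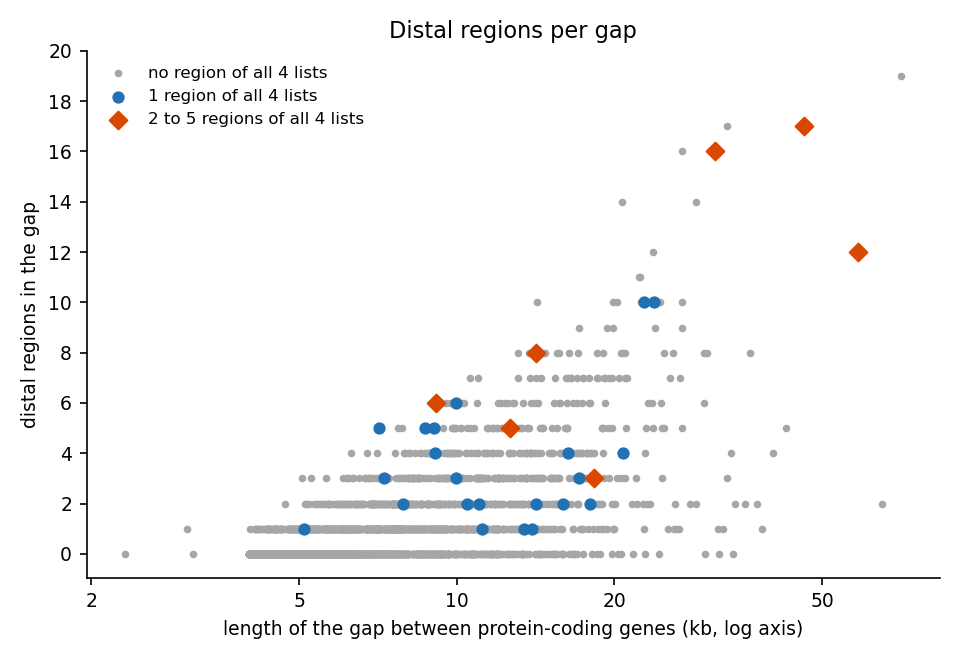
Number of distal regions in each gap between protein-coding genes (vertical axis) against the length of the gap in kb (log axis). Diamonds mark the 7 gaps with at least 2 regions of all 4 lists, circles the other gaps with 1, and grey points the rest; gaps of 9.1 kb to 58.6 kb are among the diamonds.

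The regions farthest from any protein-coding gene in at least 2 lists lay near the left end of X, before Y73B3A.1. A region at 6161 to 6371 over the pseudogene CE7X_3.1 was about 36.4 kb away, with folds of 1.31 in WT 1 and 1.53 in GF 1, and 1 at 8873 to 9314 over CE7X_3.2 about 33.5 kb away (1.64, 1.78 and 1.81 in the long lists). A pair over the pseudogene Y73B6A.6 on IV lay about 33.5 and 32.6 kb away, with folds of 1.61, 2.07 and 2.15 and of 1.41, 1.59 and 1.45. The farthest region of all 4 lists, at 7424535 to 7424785 on III, lay about 29.2 kb from lgc-50 (1.79, 1.77, 1.59 and 1.63). Of the 48 regions of all 4 lists, 25 (52.1%) lay over 5 kb away, against 26.3% of all distal regions. By the nearest summit of each region the shares were 52.1% and 25.4%. The 25 regions are not independent, since they include 5 in the acr-10 gap, 5 in the lgc-50 gap and 3 in the ZK218.11 gap. The share of all summits over 5 kb away was also the highest in GF 2, at 4.31% against 2.93%, 2.30% and 2.48% in the long lists.

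Genes other than protein-coding ones were frequent under distal summits. Any such gene, piRNA genes left out, covered 13.4% of the distal sequence and held 22.6% of the distal summits of WT 1, 22.5% of WT 2, 23.8% of GF 1 and 12.8% of GF 2. Genes typed as ncRNA covered 2.07% of this sequence and held 9.78%, 7.495%, 8.79% and 4.65% of the summits, above the sequence share in 4 of 4 lists. Other peaks showed the same direction, with 3.55%, 2.92%, 3.09% and 1.95% of summits in ncRNA genes on 0.954% of the sequence. Pseudogenes covered 10.3% and held 11.99%, 13.7% and 14.1% of the summits of the long lists but 5.81% in GF 2. The 15363 piRNA genes, clustered on IV, covered 0.693% of distal sequence and held 1, 1, 0 and 0 summits.

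Distal peaks over ncRNA genes had folds close to those outside any gene in the long lists. Median folds inside ncRNA genes were 1.474, 1.493 and 1.526 in WT 1, WT 2 and GF 1, against 1.504, 1.493 and 1.561 outside non-coding genes. In GF 2 the medians were 1.91 over 4 peaks inside and 1.47 over 75 outside. By mean fold, regions over a non-coding gene were led by C30E1.9, then by the pseudogene Y80D4G.1 on III at 7602345 to 7602537 (2.74, 2.95 and 3.16 in the long lists) and by linc-154. The fourth lay over the pseudogene T26C11.3 on X (2.28, 1.86 and 3.19), and the fifth over F54A5.5 and F54A5.4 on I near the adaptor gene shc-1 (2.36, 2.54 and 2.31). The others of the first 10 lay over the pseudogenes T10B5.2, Y54G2A.24 and F48F5.2, over C30E1.9 again, and over the cluster K07C10.8, K07C10.3, K07C10.6 and K07C10.2 on II. That cluster includes small nucleolar RNA genes, which guide RNA modification, and had folds of 1.57 in WT 2, 3.10 in GF 1 and 2.27 in GF 2 and no WT 1 peak. Both GF values there exceeded the WT 2 value.

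Ribosomal RNA genes lay in 5 distal regions (0.152%), 3 of them in all 4 lists. The genes covered 0.0722% of distal sequence and held 3, 1, 3 and 1 distal summits of WT 1, WT 2, GF 1 and GF 2. At the right end of I, a region at 15064111 to 15067552 covered rrn-2.1 and rrn-3.1, of the array that encodes the 5.8S and 26S RNAs. Its folds were only 1.28 for WT 1, 1.59 for WT 2, 1.301 for GF 1 and 1.32 for GF 2, while its -log10 q was 177, 785, 200.3 and 190.4. The ZK218.11 gap on V holds 5S RNA genes, and distal regions there covered rrn-4.2 (2.67, 2.28, 2.34 and 1.39) and rrn-4.7 (2.57, 2.35, 2.17 and 1.87). Regions over rrn-4.3 with the spliced leader gene sls-1.12 (1.99, 2.19 and 1.87) and over rrn-4.12 (1.99, 1.999 and 2.06) had no GF 2 peak. These genes exist in many near-identical copies, so reads could belong to another copy, and the level at any 1 copy is uncertain.

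MicroRNA genes lay in 17 distal regions (0.516%), and 2 of these were in all 4 lists. A region was counted if any part of it overlapped the gene. Such genes covered 0.0391% of distal sequence and held 3, 6, 2 and 2 distal summits of WT 1, WT 2, GF 1 and GF 2. At 14033708 to 14034444 on IV, the region of mir-52, a member of the mir-51 family, had a fold of 1.54 for WT 1, 2.81 for WT 2, 1.57 for GF 1 and 1.56 for GF 2. WT 2 was the high list there and the others were nearly equal. The other was mir-8196.1, inside the linc-154 region, with 1.93, 1.92, 3.40 and 2.57. Of the remaining 15, 7 were found in the 3 long lists, namely mir-794 on I (1.55, 1.84 and 2.89), mir-5548 on II, mir-46 on III, mir-73 and mir-49 on X, mir-257 on V and mir-2209.2 with mir-2208.1 on IV. The muscle microRNA mir-1 was in WT 2 and GF 1 (1.57 and 1.35), and mir-48, of the let-7 family, in both WT lists (1.28 and 1.39).

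Long non-coding RNA genes lay in 38 regions (1.15%). Of these, 19 were in 1 list only, where 39.99% of all distal regions were, and counts this small do not set them apart. The genes covered 0.935% of distal sequence and held 0.631%, 1.19%, 0.937% and 2.33% of the distal summits of WT 1, WT 2, GF 1 and GF 2, the last from 2 peaks. The 11 found in the 3 long lists and not GF 2 included linc-167 on I (1.71, 1.99 and 2.28), linc-87 on III near Y75B8A.7 (1.62, 1.59 and 1.42) and linc-163 on V (1.34, 1.88 and 1.79). A region over linc-161 on III, in the gap after the Hox gene nob-1, had lower folds (1.31, 1.39 and 1.35). Transfer RNA genes lay in 13 distal regions (0.394%), snoRNA genes in 7 (0.212%) and snRNA genes in 5 (0.152%), again by overlap of any part. In that order they covered 0.0478%, 0.0392% and 0.0145% of distal sequence. Transfer RNA genes held 0, 2, 3 and 0 distal summits of WT 1, WT 2, GF 1 and GF 2. The snoRNA genes held 0, 2, 3 and 1 and the snRNA genes 1, 2, 3 and 0.

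The SKN-1 pathway and detoxification genes held few distal regions and little distal sequence. Of 39 listed names, 38 were in the gene table and 11 had distal sequence closest to them, and 3 of these 11 (27.3%) were nearest to a region, where 37.7% of all genes with distal sequence were. The 3 regions made up 0.0910% of all distal regions on 0.114% of the distal sequence, and counts this small do not set the list apart. The best known SKN-1 target, gcs-1, which encodes the rate-limiting enzyme of glutathione synthesis, had 1 distal region at 9033171 to 9033371 on II, with a fold of 1.24 in WT 2 and no peak in the other lists. The MAP kinase kinase kinase gene nsy-1, which acts upstream of SKN-1, had 1 in WT 2 and GF 1 (1.90 and 1.51), and the Runx factor gene rnt-1 had 1 in WT 2 and GF 1 (1.61 and 1.59). None of the 3 regions was in all long lists. Peaks inside these genes or within 2 kb of them are outside this part, so the 3 regions do not describe all SKN-1 peaks at them. Among detoxification families, 0 of 6 glutathione S-transferase genes with distal sequence, 1 of 8 UDP-glucuronosyltransferase genes and 3 of 11 cytochrome P450 genes were nearest to a region.

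For developmental gene families the share of regions was close to, or somewhat above, the share of distal sequence nearest to them. Over all genes with such sequence, 1889 of 5007 (37.7%) were nearest to a region. Cell adhesion, axon guidance and Wnt genes had 37 of 54 genes (68.5%) and 57 regions, 1.73% of the regions on 1.16% of the sequence. GATA, T-box, bHLH and Sox factors had 19 of 31 genes (61.3%) with 48 regions (1.46% on 1.16%), and homeobox factors 24 of 45 genes (53.3%) with 54 regions (1.64% on 1.28%). In that order 13 (22.8%), 17 (35.4%) and 12 (22.2%) of these regions were in the 3 long lists, against 31.6% of all distal regions. None was in all 4 lists, where 1.46% of all distal regions were. With a share this small, a count of 0 does not set families of this size apart. The share of sequence takes the length of the gaps into account, and the share of genes does not.

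For neuronal signalling genes and nuclear hormone receptors the share of regions was somewhat below that of sequence. Neuropeptide and insulin genes had 33 regions (1.001% on 1.48%), receptors and ion channels 148 (4.49% on 5.24%) and nuclear hormone receptors 56 (1.70% on 2.15%). By genes, 22 of 72 (30.6%), 71 of 171 (41.5%) and 31 of 82 (37.8%) were nearest to a region, on both sides of the 37.7% of all genes. In that order 12 (36.4%), 48 (32.4%) and 17 (30.4%) of the regions were in the 3 long lists, and 2, 5 and 0 in all 4. Chemoreceptor genes had 118 regions (3.58% on 3.30%), C-type lectins 9 (0.273% on 0.480%), F-box genes 35 (1.06% on 1.11%) and cuticle collagens 20 (0.607% on 0.606%). Cytosolic ribosomal protein genes had 7 regions (0.212% on 0.215%) and BTB and MATH genes 11 (0.334% on 0.338%). Histone genes had none.

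By chromosome, the lists placed their distal peaks differently on X. X carries 25.4% of the distal sequence and had 28.1% of the distal peaks of WT 1 (446), 16.1% of WT 2 (422), 22.7% of GF 1 (510) and 24.4% of GF 2 (21). Among other peaks the X shares were 21.1%, 11.6%, 15.9% and 5.25%, lower in each list. For both kinds of peak GF 1 lay between the 2 WT lists. The share of the remaining sequence that lies on X was not counted. The lower shares of other peaks therefore do not show that distal peaks favoured X. Chromosome IV held 22.5% of the distal sequence and 18.2% of the distal regions, or 219 regions per Mb, next to 220 on X and 302 to 334 on the other chromosomes. Regions of all peaks were also the sparsest on these 2 chromosomes, at 309 per Mb on IV and 316 on X against 347 to 414 on the others. Cut into left, middle and right parts of equal length, the autosomes had 333, 252 and 277 regions per Mb of distal sequence, so the middle held the fewest. Regions of all peaks on the autosomes were also fewest there, with 35.6%, 29.7% and 34.7% in that order. On X the distal values were 221, 190 and 240 per Mb.

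**Figure D5:**
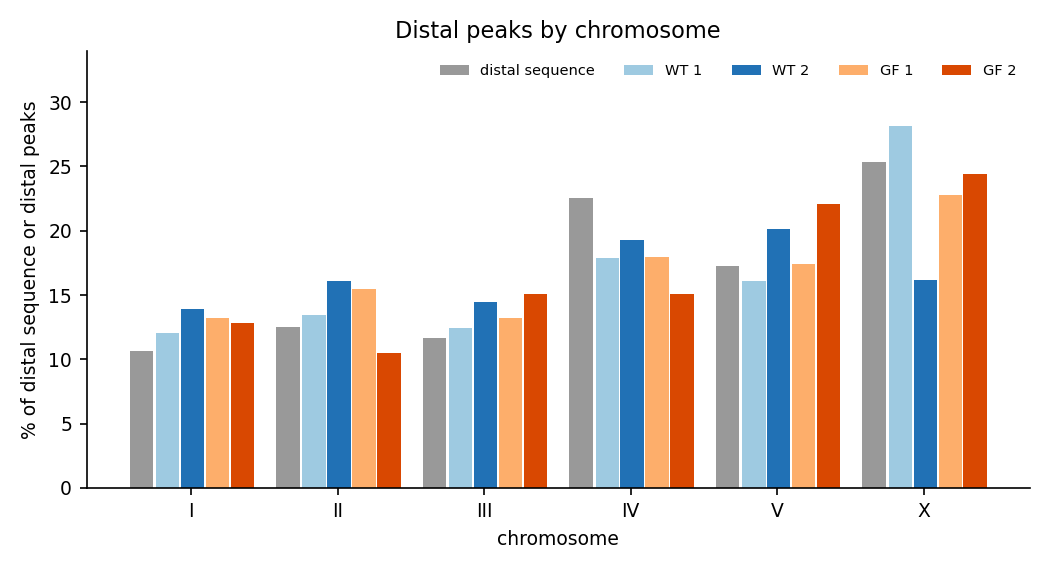
Share of the distal sequence (grey) and of the distal peaks of each list (colours) on each chromosome, in percent from 0. On X the lists run from 16.1% in WT 2 to 28.1% in WT 1, on both sides of the 25.4% of distal sequence.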

How the data were processed

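Chromatin immunoprecipitation libraries of whole C. elegans were grouped by title into WT and GF, 2 lists each. The authors deposited 1 narrowPeak list per sample, so replicates were not pooled. The submitters' processing notes name MACS2 2.2.7.1, BWA 0.7.17, Trim Galore 0.6.4 and SAMtools 1.10, with ce10 as the build. The sources used here do not give the control. Per peak, the authors' files hold a deposited fold enrichment, which is a ratio to background. They also hold the deposited -log10 of the p-value and of the q-value, the latter at least 1.3, and a deposited score of 10 times the -log10 q. Depth is unknown because the peak lists hold no read counts. In the WT 2 list the peaks are named after WT replicate 1, and the sample record was followed.

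Genes came from a RefSeq table of WBcel235, an assembly that differs from the named build. The table was used for names and for which genes neighbour a summit. Distances are therefore approximate, 583 peaks lay within 100 bp of the 2000 bp bound, and summits were also moved by 100 bp either way. Sequence shares were counted at every 10 bp. A list's value for a region is its highest distal peak. Lists were the samples in exact permutation tests, with Benjamini-Hochberg adjustment over 5 comparisons, 1 of them (-log10 q) added after the values were seen. The tests and overlaps were tested on simulated data. Members and gene lists were chosen with earlier results of these data known. Regions were named by fixed rules: the first 10 by summed rank of fold in all 4 and in the 3 long lists, 5 shared by 1 genotype, the 5 farthest, 10 over non-coding genes, 3 peaks on either side of the bound and those nearest to SKN-1 pathway genes; ribosomal, micro and long non-coding RNA genes, gaps and the order of genotypes were added after the values were seen. The work used SciPy 1.17.1 and statsmodels 0.14.6 for the tests, pandas 2.3.3 with NumPy 2.4.6 for the tables and matplotlib 3.10.9 for the plots, under Python 3.11.15. Sequences of the regions were not used here.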

Additional observations from a re-analysis of the deposited data

How the results depend on the processing

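The count of 3296 distal regions was 5347 at a distance over 1000 bp, 869 over 5000 bp, 1527 when every gene type but piRNA was avoided, 2152 with a -log10 q of at least 5, 289 with lists cut to 905 peaks, and 2605 to 3281 with 1 list left out. It was 2728 when peaks within 500 bp of each other were merged, and regions of all 4 lists were not counted under that merge. Regions of all 4 lists numbered 25 over 5000 bp and 12 in shortened lists, alternatives that, like those for the -log10 q, were chosen after seeing the data. The count with a list left out has no value. The GF minus WT share of distal peaks turned positive over 5000 bp (0.784 percentage points), with summits moved right (0.00725), with every gene type (0.920) and at the stricter q (0.957). It stayed negative over 1000 bp (-1.22) and in shortened lists, where it was widest (-5.58, exact p = 0.333, the smallest possible), and ran from -0.708 to 0.382 with 1 list left out. With WT and GF lists paired by replicate number it stayed at -0.163 (exact p = 1), where 2 pairs cannot give less than 0.5, and the labels do not say that the numbers pair samples. The fold difference was -0.0145 at the stricter q, 0.0362 over 5000 bp, 0.00127 over 1000 bp, 0.0234 with every gene type, 0.0334 in shortened lists and -0.00354 to 0.0245 with 1 list left out, negative without WT 1. The -log10 q difference of 3.18 ran from 2.25 over 1000 bp to 13.6 in shortened lists, and from 0.455 to 4.18 with 1 list left out. The width difference was 0.375 bp over 5000 bp, -44 bp at the stricter q, -181.5 bp in shortened lists and -15.5 to -6.67 bp with 1 list left out. The difference in the share above a fold of 2 was 4.41 over 5000 bp, 3.45 with every gene type, 4.58 in shortened lists and 1.55 to 3.15 with 1 list left out. The WT 1 share found in WT 2 was 63.3% with a reciprocal overlap of 50%, 64.6% with summits within 100 bp and 59.9% in shortened lists, and that of GF 2 in GF 1 was 48.8%, 52.3% and 19.8%; neither has a value with a list left out. Shorter lists and stricter overlaps leave fewer peaks to find, and the cause of the other changes was not tested. With no read counts, missing peaks cannot be told from low depth.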
